A study of Mus musculus with 6 samples.

Results

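The angiopoietin-TIE2 and endothelial genes were a set of 10 genes taken by symbol, namely the ligand genes Angpt1 and Apln, the receptor genes Tek, Tie1, Kdr, Flt1 and Aplnr, and the endothelial surface genes Pecam1, Cdh5 and Emcn. All 10 were among the 26199 genes of the deposited table, and 9 of them passed the filter on low values that left 13262 genes for testing. The hearts were collected from mouse embryos labelled embryonic 12 days. Control hearts (ctrl, n = 3 libraries) were Mrps5 fl/fl, with both alleles of the mitochondrial ribosomal protein gene Mrps5 floxed and no Cre, and mutant hearts (cKO, n = 3 libraries) were Mrps5 fl/fl; cTNT-Cre littermates. The cTNT-Cre transgene is driven by the cardiac troponin T promoter and so acts in cardiomyocytes, not in the endothelial cells that express most of these genes. Each library is a biological replicate made from pooled hearts, and since no control carried Cre without floxed alleles, effects of Cre and of Mrps5 loss cannot be told apart.

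Angiopoietin 1, encoded by Angpt1, is secreted by cardiomyocytes and other supporting cells and activates TIE2, the tyrosine kinase receptor encoded by Tek on endothelial cells and endocardium. TIE1 is a related receptor without a known high-affinity angiopoietin ligand that modulates TIE2. In the embryonic heart, signals from cardiomyocytes to the endocardium through this pathway are needed for trabeculation and for growth of the coronary vessels, alongside vascular endothelial growth factor (VEGF), which acts through the receptors encoded by Kdr (VEGFR2) and Flt1 (VEGFR1). The study followed Angpt1 among other genes in its adult Mrps5 mutant hearts, and the question here was how the ligand, its receptor and the endothelial genes compare between the embryonic groups.

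Values are FPKM, fragments per kilobase of transcript scaled to library size, summed over the transcripts of a gene. In bulk hearts, fewer cells of a type and less RNA per cell cannot be told apart. The deleted gene Mrps5 was at 9.65, 11.4 and 10.4 FPKM in ctrl replicates 1, 2 and 3, and at 5.28, 7.41 and 10.4 FPKM in cKO replicates 1, 2 and 3. The library labelled cKO replicate 3 was thus at the control level of Mrps5, so values are printed per library for the members tested, and the main fold changes also without it. It was not at the control level of every gene. In it Tnnt2 was at 683 FPKM against 948 to 1044 FPKM in ctrl, and Bmp10 at 29.2 against 19.9 to 23.0 FPKM. Vegfa, at 33.9 FPKM in that library, lay within the ctrl range of 33.0 to 42.7 FPKM. The log2 fold change of Mrps5 was -0.44 (adjusted p = 0.339 from limma) with -0.66 (adjusted p = 0.0693) without that library and -0.23 (adjusted p = 0.578) without cKO replicate 1. Cardiomyocyte markers were present in every library, with Tnnt2 between 617 and 1044 FPKM. Erythroid genes took 12.0% to 13.3% of the summed FPKM in ctrl libraries and 23.5%, 10.8% and 21.97% in cKO replicates 1, 2 and 3. Markers of embryonic liver were also found, with Alb between 0.67 and 52.9 FPKM. The number of reads is not known from FPKM, and a rough relative depth read from low values lay between 1 and 1.61, taking ctrl replicate 1 as 1.

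In controls the order of levels, per length, ran from Cdh5 (40.4 ± 1.65 FPKM, SD, n = 3) through Tek (34.9 ± 0.879), Pecam1 (28.3 ± 0.697), Angpt1 (27.1 ± 0.802), Emcn (21.4 ± 3.04), Tie1 (20.3 ± 0.774), Kdr (19.99 ± 0.162), Flt1 (9.97 ± 0.446) and Aplnr (2.85 ± 0.544) to Apln (0.442 ± 0.137). Neighbours in this order whose control libraries overlapped were Pecam1 with Angpt1, Emcn with Tie1, and Tie1 with Kdr. Within each control library the ligand Angpt1 lay below the endothelial surface gene Pecam1 per length. It was at 27.47, 27.6 and 26.2 against 27.50, 28.9 and 28.4 FPKM in ctrl replicates 1, 2 and 3.

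Promoters of 6 members were found in the RefSeq promoter table (build GRCm38.p6): Tek, Tie1, Kdr, Flt1, Apln and Emcn. The stretches upstream of Tek, Kdr, Flt1 and Emcn are shown because these genes encode the receptor of Angpt1, both VEGF receptors and the one member that was higher in every mutant library. Bases lying in an annotated exon were cut off. Endothelial promoters are known for binding sites of ETS factors, whose core is GGAA, and capitals mark this core on either strand. The Tek stretch lies at chr4:94739039-94739288 (plus strand), that of Kdr at chr5:75978459-75978705 (minus strand), that of Flt1 at chr5:147726012-147726261 (minus strand) and that of Emcn at chr3:137340828-137341066 (plus strand).
Tek: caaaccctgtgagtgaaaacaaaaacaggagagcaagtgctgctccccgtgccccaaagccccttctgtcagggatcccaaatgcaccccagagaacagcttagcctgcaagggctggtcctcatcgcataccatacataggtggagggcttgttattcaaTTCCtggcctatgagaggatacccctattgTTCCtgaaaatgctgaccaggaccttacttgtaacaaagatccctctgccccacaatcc
Kdr: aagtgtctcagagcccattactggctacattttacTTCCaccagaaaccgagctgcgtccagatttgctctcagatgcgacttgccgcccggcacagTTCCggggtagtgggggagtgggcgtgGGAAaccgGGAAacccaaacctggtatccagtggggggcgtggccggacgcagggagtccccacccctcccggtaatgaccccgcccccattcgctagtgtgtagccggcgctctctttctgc
Flt1: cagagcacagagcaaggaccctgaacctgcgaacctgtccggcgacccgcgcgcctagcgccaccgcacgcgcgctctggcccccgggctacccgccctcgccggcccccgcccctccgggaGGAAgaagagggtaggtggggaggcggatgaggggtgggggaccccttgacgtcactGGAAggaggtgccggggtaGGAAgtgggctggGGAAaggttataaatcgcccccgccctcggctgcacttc
Emcn: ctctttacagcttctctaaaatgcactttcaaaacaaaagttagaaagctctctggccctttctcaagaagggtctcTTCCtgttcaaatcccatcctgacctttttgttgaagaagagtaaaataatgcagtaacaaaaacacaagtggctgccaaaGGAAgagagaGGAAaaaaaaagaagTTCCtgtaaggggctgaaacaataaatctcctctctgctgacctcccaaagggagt

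The GGAA core was found in the 250 bases upstream of all 6 member promoters, and in 93.4% of the 32851 promoters of the table, so it does not set the members apart. The printed stretch held 2 matches for Tek and 4 each for Kdr, Flt1 and Emcn. The cyclic AMP response element TGACGTCA was found upstream of Flt1 and of no other of the 6 (1.55% of all promoters), and so were the TATA box letters TATAAA (12.4% of all promoters). The GATA motif AGATAA was found in none of the 6 windows (9.99% of all promoters). GC content ran from 40.6% in the Emcn stretch to 70.4% in the Flt1 stretch. All motifs were searched on both strands, and a match is a description of the letters only.

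Angpt1 (ENSMUSG00000022309) differed most between the groups among the members. It was at 27.5, 27.6 and 26.2 FPKM in ctrl replicates 1, 2 and 3 and at 7.64, 14.6 and 20.9 FPKM in cKO replicates 1, 2 and 3. Every mutant library lay below every control library, and the mutant libraries were spread far wider than the controls. The mean was 27.1 ± 0.802 FPKM in ctrl and 14.4 ± 6.63 FPKM in cKO (SD, n = 3 each), or 53.0% of the control mean. The log2 fold change of FPKM + 1 was -0.97 (standard error 0.28, 95% confidence interval -1.62 to -0.32), an unadjusted p of 0.00853 from limma and, after Benjamini-Hochberg adjustment over all genes tested, an adjusted p of 0.195, so Angpt1 did not pass the adjusted threshold of 0.05. Its log2 fold change was the 30th lowest of the 13262.

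**Figure D1:**
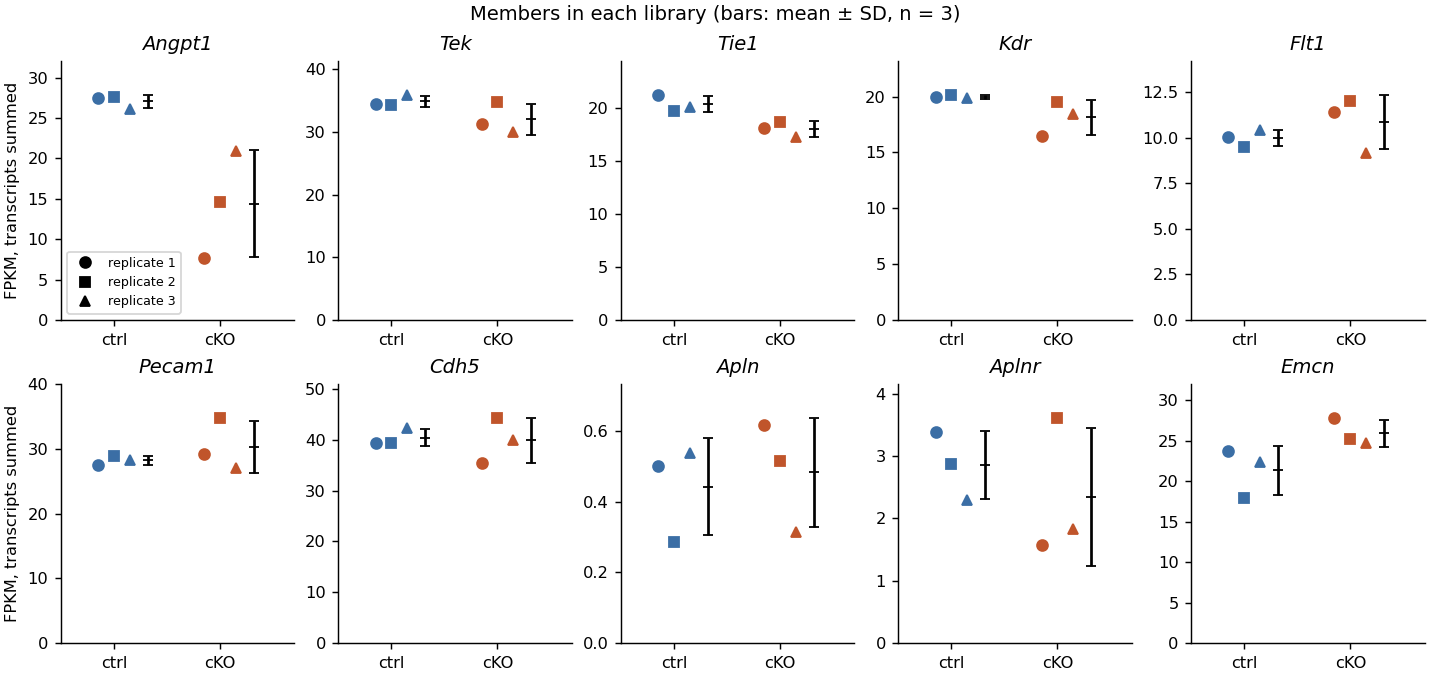
FPKM summed over transcripts (vertical axis, from 0, one scale per gene) of the 10 members in the 3 ctrl (blue) and 3 cKO (orange) libraries, with replicates 1, 2 and 3 as circles, squares and triangles and black bars for the mean ± SD. Angpt1 is lower in all 3 cKO libraries, at 7.64 to 20.9 against 26.2 to 27.6 FPKM, and Emcn is higher in all 3, at 24.7 to 27.8 against 17.9 to 23.8 FPKM.

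The mutant libraries had the same order for Angpt1 as for Mrps5. As a percent of the control mean, Angpt1 was at 28.2%, 53.8% and 77.1% in cKO replicates 1, 2 and 3, where Mrps5 was at 50.5%, 70.8% and 99.2%. These are 3 libraries, and the relation was not tested. The coefficient of variation of Angpt1 was 2.96% in ctrl and 46.2% in cKO, and 2.77% of the genes tested had a larger one in cKO. Without the library labelled cKO replicate 3, the log2 fold change of Angpt1 was -1.28 (adjusted p = 0.0268 from limma), which passed the threshold, where 2.03% of all genes tested did. Without cKO replicate 1 it was -0.60 (adjusted p = 0.277).

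**Figure D2:**
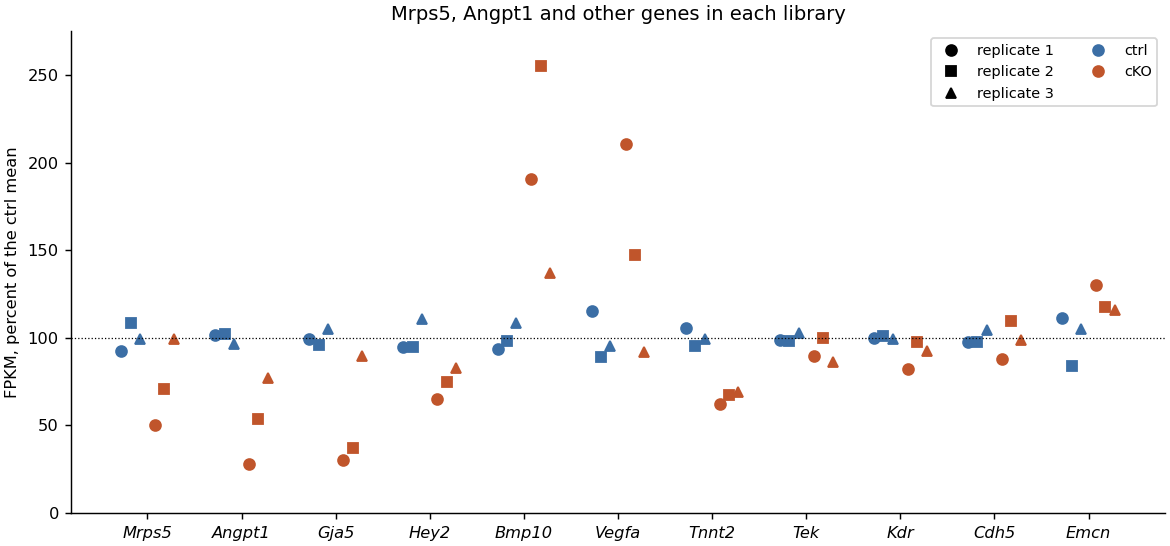
FPKM of 11 genes as a percent of the mean of the 3 ctrl libraries (vertical axis, dotted line at 100), ctrl in blue and cKO in orange, with replicates 1, 2 and 3 as circles, squares and triangles. In cKO replicates 1, 2 and 3, Angpt1 stands at 28.2%, 53.8% and 77.1% and Mrps5 at 50.5%, 70.8% and 99.2%, while Tek stays between 86.1% and 99.8%.

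The ratio of ligand to receptor was read within each library, where a scale shared by all genes cancels. Angpt1 over Tek was 0.797, 0.803 and 0.728 in ctrl replicates 1, 2 and 3 and 0.245, 0.418 and 0.695 in cKO replicates 1, 2 and 3. The ratio was lower in 3 of 3 mutant libraries than in any control library, by 1.87-fold on average (two-sided exact permutation p = 0.1, the smallest that 3 against 3 libraries allow, and 0.25 after adjustment over 5 ratios). Angpt1 over the cardiomyocyte gene Tnnt2, which encodes cardiac troponin T, was 0.0263, 0.0291 and 0.0266 in ctrl and 0.0124, 0.0218 and 0.0306 in cKO replicates 1, 2 and 3, so the groups overlapped through cKO replicate 3 (two-sided exact permutation p = 0.4, adjusted 0.4). Tnnt2 was itself lower in every mutant library, at 656 ± 34.7 against 992 ± 48.9 FPKM (SD, n = 3). On the log2 scale the difference of Tnnt2 was -0.60 (adjusted p = 0.0954 from limma), and -3.79 for its most abundant transcript row (adjusted p = 0.537). Against the summed FPKM of 10 cardiomyocyte genes, Angpt1 was lower in every mutant library by 1.89-fold on average (two-sided exact permutation p = 0.1, adjusted 0.25). Of these 10 genes 9 were lower in cKO, but the sum also holds Nppa, at 1214 ± 376 against 722 ± 90.1 FPKM (SD, n = 3).

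Tek (ENSMUSG00000006386), the TIE2 receptor, was at 34.5, 34.4 and 35.9 FPKM in ctrl replicates 1, 2 and 3 and at 31.2, 34.9 and 30.1 FPKM in cKO replicates 1, 2 and 3. The groups overlapped, since cKO replicate 2 lay among the controls. The log2 fold change was -0.12 (standard error 0.08, 95% confidence interval -0.32 to 0.07, adjusted p = 0.535 from limma), or -0.080 without the library labelled cKO replicate 3 (adjusted p = 0.759).

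Tie1 (ENSMUSG00000033191) was at 21.2, 19.7 and 20.1 FPKM in ctrl and at 18.1, 18.7 and 17.2 FPKM in cKO replicates 1, 2 and 3. Every mutant library lay below every control library, by a small margin. The log2 fold change was -0.17 (standard error 0.08, 95% confidence interval -0.35 to 0.01, adjusted p = 0.367 from limma). For its most abundant transcript alone the value was -0.02.

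The other genes of the angiopoietin pathway were read from a list of 6. Angpt2, which encodes a ligand that mostly opposes angiopoietin 1 at TIE2, was at 0.615, 0.572 and 0.484 FPKM in ctrl and at 0.983, 1.11 and 0.590 FPKM in cKO replicates 1, 2 and 3, and did not pass the filter on low values. Angpt4, a further ligand gene, lay between 0.0317 and 0.167 FPKM and was not tested either. Of the 4 genes tested, 0 had an unadjusted p under 0.05, where 15.0% of all genes did. Ptprb, the endothelial phosphatase that acts on TIE2, had a log2 fold change of 0.01 (95% confidence interval -0.32 to 0.34), Dok2, an adaptor bound by active TIE2, of 0.01, and Foxo1, a transcription factor restrained by TIE2 signalling, of -0.05 (-0.015 without cKO replicate 1 and -0.11 without cKO replicate 2). Svep1, an extracellular matrix protein that binds TIE1, was lower in every mutant library, at 3.75, 3.85 and 3.58 FPKM in cKO against 4.10, 4.04 and 4.06 FPKM in ctrl replicates 1, 2 and 3 (log2 fold change -0.10, adjusted p = 0.657 from limma).

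**Figure D3:**
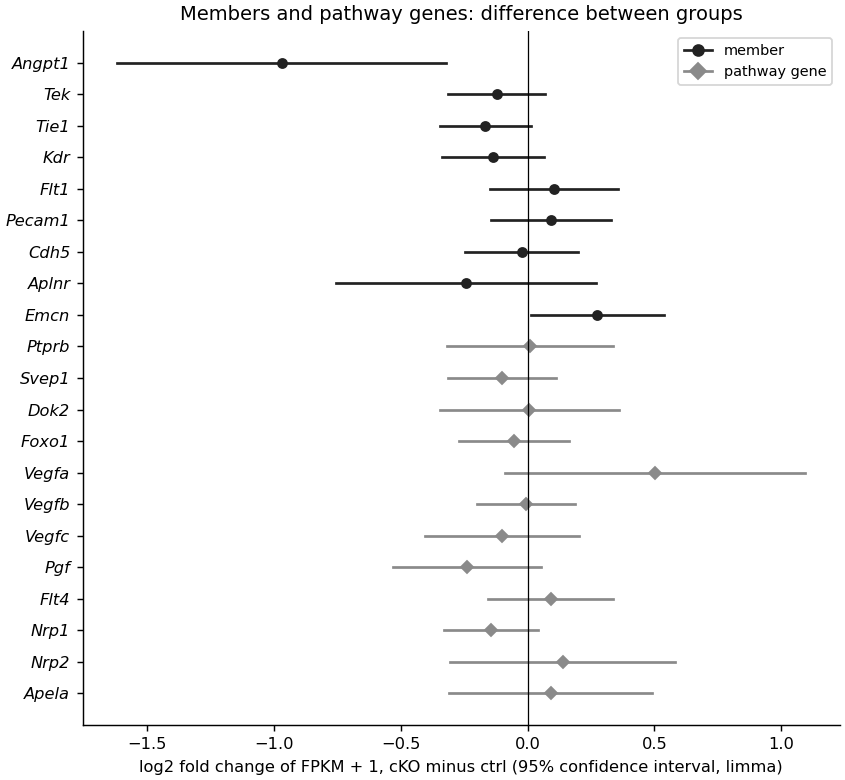
Log2 fold change of FPKM + 1, cKO minus ctrl (horizontal axis), with 95% confidence intervals from limma, for the 9 members tested (black circles) and 12 pathway genes tested (grey diamonds). The intervals of Angpt1 (-1.62 to -0.32) and Emcn (0.01 to 0.54) leave out 0, and those of the other genes include it.

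None of the VEGF receptor genes passed the test. Kdr (ENSMUSG00000062960), the main signalling receptor, was at 19.9, 20.2 and 19.8 FPKM in ctrl and at 16.4, 19.5 and 18.4 FPKM in cKO replicates 1, 2 and 3. All mutant libraries lay below the controls, cKO replicate 2 by little, and the log2 fold change was -0.14 (standard error 0.09, 95% confidence interval -0.34 to 0.06, adjusted p = 0.502 from limma), or -0.071 without cKO replicate 1 (adjusted p = 0.774). Once each library was rescaled with erythroid genes left out, cKO replicate 2 at 19.33 was above ctrl replicate 3 at 19.32, and the groups overlapped.

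Flt1 (ENSMUSG00000029648), a receptor that binds VEGF tightly and limits its action on Kdr, was at 10.02, 9.51 and 10.4 FPKM in ctrl and at 11.4, 12.0 and 9.16 FPKM in cKO replicates 1, 2 and 3. Mutant replicates 1 and 2 lay above the controls and the library labelled cKO replicate 3 below them (log2 fold change 0.10, standard error 0.11, adjusted p = 0.703 from limma). Without that library the value was 0.21 (adjusted p = 0.349), and without cKO replicate 2 it was 0.034 (adjusted p = 0.907). Kdr over Flt1 was 1.99, 2.12 and 1.91 in ctrl and 1.44, 1.63 and 2.01 in cKO replicates 1, 2 and 3, with overlap (two-sided exact permutation p = 0.3, adjusted 0.375 over 5 ratios).

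Among 8 other genes of VEGF signalling, 7 passed the filter, and 0 of these had an unadjusted p under 0.05 against 15.0% of all genes. Without the library labelled cKO replicate 3, Vegfa and Nrp2 fell under that line (unadjusted p of 0.00141 and 0.00432 from limma), though not under the adjusted threshold. Vegfa, the ligand of Kdr and Flt1, was at 42.7, 33.0 and 35.2 FPKM in ctrl and at 77.7, 54.4 and 33.9 FPKM in cKO replicates 1, 2 and 3. It was high in cKO replicates 1 and 2 and at the control level in the library where Mrps5 was too (log2 fold change 0.50, standard error 0.26, adjusted p = 0.403 from limma, with 0.81 at an adjusted p of 0.0612 without that library and 0.22 at an adjusted p of 0.691 without cKO replicate 1). Vegfa over Kdr was 2.14, 1.63 and 1.77 in ctrl and 4.73, 2.78 and 1.84 in cKO (two-sided exact permutation p = 0.2, adjusted 0.333). Pgf, a ligand of Flt1, had a log2 fold change of -0.24 (adjusted p = 0.421), or -0.47 for its most abundant transcript row (unadjusted p of 0.00799 and adjusted p of 0.299 from limma), and the coreceptor genes Nrp1 and Nrp2 of -0.15 (adjusted p = 0.434) and 0.14 (adjusted p = 0.781). Without the library labelled cKO replicate 3, Nrp2 was at 0.39 (adjusted p = 0.113 from limma), and without cKO replicate 1 at -0.017. Vegfb was at -0.01, Vegfc, the ligand of the receptor encoded by Flt4, at -0.10 and Flt4 at 0.09 on the same scale (Flt4 at 0.015 without cKO replicate 2 and 0.15 without cKO replicate 3, Vegfc at -0.24 without cKO replicate 1 and 0.0031 without cKO replicate 3), and Vegfd, at 0.911 to 1.34 FPKM, was not tested.

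Apelin signalling acts through Aplnr, a G protein-coupled receptor of developing endocardium and coronary endothelium, which binds apelin (Apln) and ELABELA (Apela). Aplnr (ENSMUSG00000044338) was at 3.38, 2.87 and 2.30 FPKM in ctrl and at 1.58, 3.61 and 1.84 FPKM in cKO replicates 1, 2 and 3. Mutant replicate 2 was the highest of all libraries and the other mutants the lowest (log2 fold change -0.24, standard error 0.22, adjusted p = 0.650 from limma, and -0.50 without cKO replicate 2 and -0.08 without cKO replicate 1). Apln (ENSMUSG00000037010), made by sprouting endothelium, was at 0.502, 0.285 and 0.540 FPKM in ctrl and at 0.620, 0.516 and 0.316 FPKM in cKO replicates 1, 2 and 3, with overlap, and did not pass the filter. Apela, from 14.4 to 24.6 FPKM, was the more abundant ligand transcript per length, with an adjusted p of 0.845 for a log2 fold change of 0.09.

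Of the surface genes, Pecam1 (ENSMUSG00000020717), an adhesion molecule of endothelial junctions also carried by platelets and leukocytes, was at 27.5, 28.9 and 28.4 FPKM in ctrl and at 29.2, 34.8 and 27.0 FPKM in cKO replicates 1, 2 and 3. The mutant libraries lay on both sides of the controls (log2 fold change 0.09, standard error 0.10, adjusted p = 0.722 from limma, with 0.17 without the library labelled cKO replicate 3 and -0.0080 without cKO replicate 2). Cdh5 (ENSMUSG00000031871), the VE-cadherin of endothelial junctions, was at 39.48, 39.49 and 42.3 FPKM in ctrl and at 35.5, 44.3 and 39.96 FPKM in cKO. Its log2 fold change was -0.02 (standard error 0.10, 95% confidence interval -0.25 to 0.20, adjusted p = 0.938 from limma), and 0.00 with median-ratio size factors or erythroid genes left out.

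Emcn (ENSMUSG00000054690), the sialomucin endomucin of endocardial, venous and capillary endothelium, was the member that was higher in every mutant library. It was at 23.8, 17.9 and 22.4 FPKM in ctrl and at 27.8, 25.2 and 24.7 FPKM in cKO replicates 1, 2 and 3, with ctrl replicate 2 low. The log2 fold change was 0.27 (standard error 0.11, 95% confidence interval 0.01 to 0.54), with an unadjusted p of 0.0423 and an adjusted p of 0.316 from limma. It did not pass the adjusted threshold, and without ctrl replicate 2 the log2 fold change was 0.16.

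Read together, 0 of the 9 members tested had an adjusted p under 0.05 from limma, where 0.0829% of all genes did (11 genes, 4 lower and 7 higher). At an unadjusted p under 0.05 the members held 2 genes against 15.0% of all genes, Angpt1 lower (9.43% of all genes) and Emcn higher (5.58%). Of all genes at that line 62.8% were lower, and 52.4% once each library was rescaled with erythroid genes left out. The groups did not overlap in 4 of the 9 members against 20.8% of all genes, with Angpt1, Tie1 and Kdr lower (13.0%) and Emcn higher (7.74%). After rescaling without erythroid genes it was 3 of 9, without Kdr. The median log2 fold change was -0.12 over the 9 members and -0.02 over all genes tested, and 6 members were lower and 3 higher, where 55.0% of all genes were lower. Angpt1 excepted, the log2 fold changes lay between -0.24 and 0.27, between -0.15 and 0.31 without the library labelled cKO replicate 3, and between -0.50 (Aplnr) and 0.29 without cKO replicate 2.

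Of the 8 genes tested other than Angpt1, 7 had their highest mutant value in cKO replicate 2, the exception being Emcn, and the lowest was in the library labelled cKO replicate 3 for 5 of them and in cKO replicate 1 for 3. Erythroid genes held 10.8% of the summed FPKM in cKO replicate 2 and 23.5% and 21.97% in replicates 1 and 3. Once each library was rescaled with erythroid genes left out, cKO replicate 2 was still the highest mutant library for the same 7 genes. Pecam1, for instance, was then at 29.8, 34.4 and 27.5 in cKO replicates 1, 2 and 3. The part of erythroid genes in this pattern was not tested. Angpt1 had its lowest value in cKO replicate 1 and its highest in the library labelled cKO replicate 3.

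Other endothelial genes were taken from lists that did not include the members. Of 26 pan-endothelial genes, all passed the filter, 19 were lower and 7 higher in cKO. At an unadjusted p under 0.05 there were 4, all lower, where 15.0% of all genes reached that line and 9.43% did so lower. None of the 26 passed an adjusted p of 0.05 from limma, and the median log2 fold change of the list was -0.09. Nos3, encoding endothelial nitric oxide synthase, was at 7.53, 7.97 and 8.45 FPKM in cKO against 11.9, 9.17 and 10.9 FPKM in ctrl replicates 1, 2 and 3 (log2 fold change -0.37, standard error 0.11, adjusted p = 0.197 from limma). Ecscr, encoding an endothelial surface protein, had a log2 fold change of -0.34 (adjusted p = 0.270). The groups did not overlap in 4 of the 26, all lower, and in 3 once erythroid genes were left out, against 20.8% of all genes (13.0% lower). Tal1, which is also an erythroid transcription factor, had the highest value of the list at 0.57 and was high where erythroid genes were, at 66.0 and 72.2 FPKM in cKO replicates 1 and 3 and 33.1 FPKM in cKO replicate 2.

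In the endocardial list of 10 genes, 6 were lower and 4 higher in cKO. An unadjusted p under 0.05 was reached by 5 of them, 4 lower and 1 higher, against 15.0% of all genes, and 5 did not overlap between the groups (4 with erythroid genes left out), against 20.8%. Bmp10, a trabecular cardiomyocyte growth factor placed in this list for its role in endocardial signalling, was at 19.9, 20.9 and 23.0 FPKM in ctrl and at 40.6, 54.3 and 29.2 FPKM in cKO replicates 1, 2 and 3 (log2 fold change 0.89, standard error 0.19, adjusted p = 0.139 from limma, and 0.00588 without the library labelled cKO replicate 3). Nrg1, the endocardial neuregulin that signals to the myocardium, was lower in every mutant library, from 6.72 ± 0.769 to 4.81 ± 1.03 FPKM (SD, n = 3; log2 fold change -0.42, adjusted p = 0.242 from limma), but its most abundant transcript row alone gave -0.01 and its groups overlapped once erythroid genes were left out. Cgnl1, a junction protein, had a log2 fold change of -0.26 (adjusted p = 0.273), or -0.42 for its most abundant transcript row (adjusted p = 0.679).

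Of 12 tip cell, arterial and venous genes tested, 7 were lower and 5 higher in cKO, where 55.0% of all genes were lower. Both that reached an unadjusted p under 0.05 were lower, where 15.0% of all genes reached that line and 9.43% did so lower. These were Gja5 and Hey2, which mark arteries but are also made by cardiomyocytes of the trabeculae and the compact wall. Gja5, encoding connexin 40, was at 28.3, 27.3 and 30.0 FPKM in ctrl and at 8.62, 10.5 and 25.6 FPKM in cKO replicates 1, 2 and 3. Like Angpt1 it was lowest in cKO replicate 1 and nearest to the controls in the library labelled cKO replicate 3 (log2 fold change -1.04, standard error 0.32, adjusted p = 0.214 from limma, and -1.49 with an adjusted p of 0.000476 without that library). Hey2 was at 18.8 ± 2.28 against 25.4 ± 2.34 FPKM (SD, n = 3; log2 fold change -0.41, adjusted p = 0.170 from limma).

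**Figure D4:**
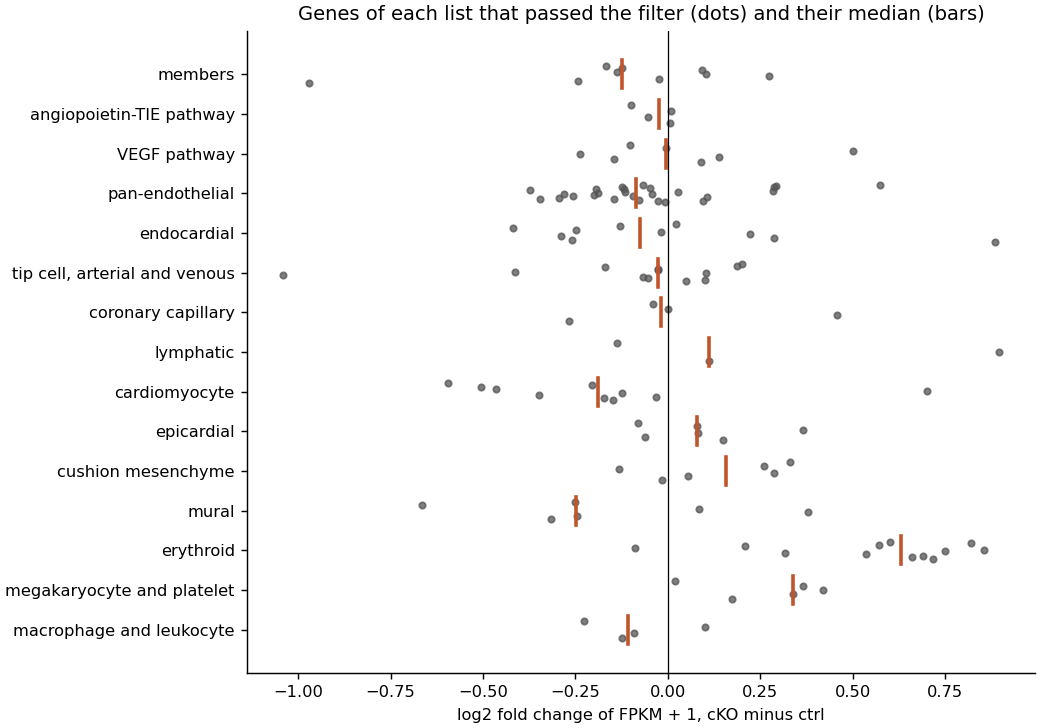
Log2 fold change of FPKM + 1, cKO minus ctrl (horizontal axis), of every gene that passed the filter (dots) in 15 of the lists, with orange bars at each list's median. The members and the endothelial lists have medians between -0.12 and 0.11, and erythroid genes have a median of 0.63. Angpt1 (-0.97) and Gja5 (-1.04) stand at the left. At the right stand Bmp10 (0.89) and Pdpn (0.90), a lymphatic gene that was at 0 FPKM in ctrl replicate 1.

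Markers of other cell types were read in the same way, against 9.43% of all genes lower and 5.58% higher at an unadjusted p under 0.05. In the cardiomyocyte list, 9 of 10 genes were lower, 4 of them at an unadjusted p under 0.05, and Nppa was higher (log2 fold change 0.70, adjusted p = 0.240 from limma). Erythroid genes had a median of 0.63, with 5 of 12 higher at an unadjusted p under 0.05, and megakaryocyte and platelet genes, some of whose cells carry Pecam1, a median of 0.34 with 1 of 5. In the mural list of pericyte and smooth muscle genes, 4 of 6 were lower and 2 higher (Pdgfrb at 0.08 and Myh11 at 0.38 on the log2 scale, named after their values were seen). An unadjusted p under 0.05 was reached by 3, all lower, among them the pericyte gene Rgs5 at 9.09, 6.49 and 4.09 FPKM in cKO against 8.87, 10.8 and 12.3 FPKM in ctrl replicates 1, 2 and 3. Rgs5 was lowest in the library labelled cKO replicate 3, and differed by -0.67 on the log2 scale (adjusted p = 0.249 from limma), by -0.41 without that library (adjusted p = 0.298) and by -0.90 without cKO replicate 1 (adjusted p = 0.241). Medians were 0.08 for epicardial, 0.16 for cushion mesenchyme, -0.02 for coronary capillary, 0.11 for lymphatic, -0.11 for macrophage and leukocyte and 0.04 for liver genes, with 1 epicardial gene and 0 of the others at an unadjusted p under 0.05. The summed FPKM of the cardiomyocyte list was 6631 to 7917 in ctrl and 6238 to 7090 in cKO, and of the pan-endothelial list 401 to 423 and 399 to 411. The pan-endothelial sum includes Tal1, at 32.6 to 39.5 FPKM in ctrl and 66.0, 33.1 and 72.2 FPKM in cKO replicates 1, 2 and 3. No gene of the cardiomyocyte or pan-endothelial list was at 0 in any library.

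The table gave 23 transcript rows for the members, 18 of them with a mean of at least 0.5 FPKM. Angpt1, Kdr and Aplnr each rested on 1 such row. Tek-201 made up 82.4% to 93.1% of Tek. The second row, Tek-203, was lower in every mutant library, at 3.25, 3.79 and 1.94 FPKM against 4.90, 4.09 and 4.65 FPKM in cKO and ctrl replicates 1, 2 and 3.

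Flt1 is known for a membrane receptor and a soluble form that traps VEGF. Flt1-202, annotated in GENCODE M21 with 1333 residues, and the shorter Flt1-203, with 688 residues and 13 against 30 exons, were both present, and Flt1-203 held 54.5% to 60.9% of Flt1 in ctrl and 58.0% to 66.5% in cKO. Its FPKM was 6.10, 5.18 and 5.95 in ctrl and 7.58, 7.37 and 5.31 in cKO replicates 1, 2 and 3, so the groups overlapped.

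In Emcn and Tie1 the split between rows differed between libraries rather than groups. Emcn-201 held 22.6% of Emcn in ctrl replicate 2 and 22.2% in cKO replicate 2, and 51.9% to 62.2% in the other 4 libraries. Tie1-203, with 647 residues against 1134 for Tie1-201, held 4.49% and 2.96% in the same libraries and 10.8% to 32.5% in the others. Over 8357 transcript rows of all genes, the deviations of such shares from the group means correlated at 0.0123 between both libraries numbered 2. The most abundant row of Emcn, taken alone, gave 0.22 on the log2 scale (adjusted p = 0.757 from limma).

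**Figure D5:**
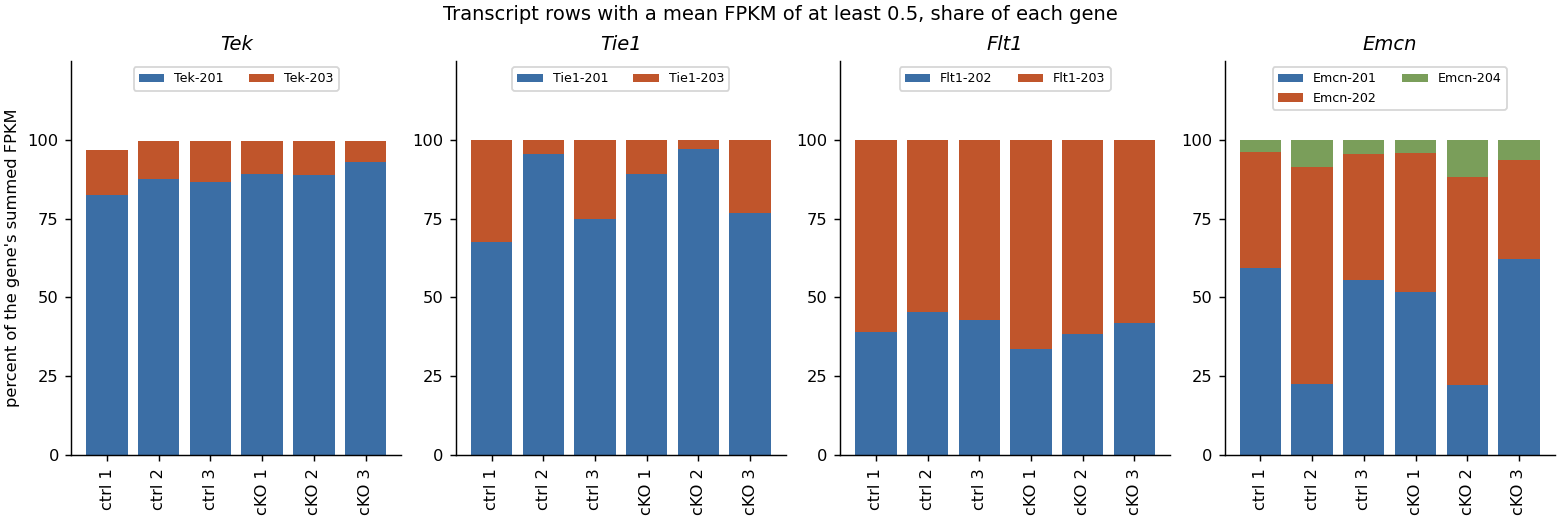
Percent of the summed FPKM of Tek, Tie1, Flt1 and Emcn (vertical axis) held by each transcript row with a mean FPKM of at least 0.5, one stacked bar per library. Emcn-201 is at 22.6% and 22.2% and Tie1-203 at 4.49% and 2.96% in ctrl replicate 2 and cKO replicate 2, while Tek-201 lies between 82.4% and 93.1%.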

How the data were processed

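Ribosome-depleted, strand-specific RNA libraries were made from pooled embryonic hearts, 3 from Mrps5 fl/fl and 3 from Mrps5 fl/fl; cTNT-Cre embryos. The authors deposited FPKM values per transcript and library, in 60776 rows. The submitters' processing notes name Bowtie2 2.2.8, HISAT2, StringTie 1.3.1, Cuffdiff 2.1.1 and mm9, without roles, and how FPKM were computed for these hearts is not given in the sources used here. Groups and replicate numbers came from the sample labels.

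From the deposited FPKM, transcripts were summed per gene, 1 was added and log2 values were compared with limma 3.58.1 (lmFit, eBayes with trend, two-sided) in R 4.3.3, over the 13262 genes that reached 1 FPKM in 3 or more of the 6 libraries, with Benjamini-Hochberg adjustment over all of them. The fold change on this scale understates that of genes with low FPKM. A gene was called at an adjusted p under 0.05. Count models were not applied, as FPKM carry no counts. Ratios were compared with an exact permutation test (scipy 1.17.1). The members and the gene lists were chosen with earlier results of these data known, and other genes named were members, pathway genes or at most 3 of a list, by smallest p. Tal1, and the 4 promoters printed, were picked after values were seen. Nothing in the labels says that equal replicate numbers mark shared litters, so no block was used. Transcript names and lengths came from GENCODE M21 and promoters from RefSeq on GRCm38.p6. This build differs from the mm9 named in the notes, so these coordinates locate the printed sequences only. Alternatives were another pseudocount, other filters and scalings, 1 transcript per gene, limma without trend, a replicate block and leaving out each library.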

Additional observations from a re-analysis of the deposited data

How the results depend on the processing

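Over 15 alternatives, the log2 fold change of Angpt1 was negative, from -1.28 to -0.60, both ends coming from leaving out a mutant library (replicate 3 and replicate 1). Its adjusted p was between 0.0268 and 0.502, and it passed the threshold only without the library labelled cKO replicate 3, as did Bmp10 (1.11) and Gja5 (-1.49). Genes with an adjusted p under 0.05 numbered 5 with no filter on low values, 4 for the most abundant transcript row, 6 without the intensity trend and 4 with the replicate block, against 11, and between 5 and 269 when 1 library was left out (119 without cKO replicate 2, 269 without cKO replicate 3). Genes at an unadjusted p under 0.05 numbered 1314 under a minimum mean of 5 FPKM, and between 1216 and 2166 when 1 library was left out, against 1991, and 2635 with no filter. The members at that line were 3 with no filter (Tie1 joined Angpt1 and Emcn), 1 for the most abundant transcript row and 1 without the trend, and 1 to 2 when 1 library was left out. Angpt1 was at that line in all 15 alternatives and Emcn in 8. In its place stood Tie1 under quantile normalization, and Aplnr without cKO replicate 2 (log2 fold change -0.50, unadjusted p of 0.0156 from limma). Among the fold changes of 32 named genes, 20 values in 8 genes changed sign. With median-ratio size factors Cdh5 was at 0.00021 and Vegfb at 0.017, and with erythroid genes left out at 0.0020 and 0.019. Leaving out 1 library gave -0.099 to 0.057 for Cdh5, -0.059 to 0.033 for Vegfb, -0.12 to 0.15 for Ptprb, -0.14 to 0.10 for Dok2, -0.0080 to 0.17 for Pecam1, -0.24 to 0.0031 for Vegfc, -0.017 to 0.39 for Nrp2 and -0.096 to 0.27 for Apela. The share of lower genes at an unadjusted p under 0.05 was 62.8%, and 52.4% with erythroid genes left out. Aplnr, Svep1, Dok2, Pgf and Flt4 were too low for the filter on mean FPKM.

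Libraries with the same replicate number deviated from their group means with correlations of 0.215, 0.108 and 0.0892 for numbers 1, 2 and 3. They were not treated as paired, because nothing in the labels says that equal numbers mark shared litters. Each library did correlate best with the one of its own number, a hint from the data only. With the replicate block Angpt1 had an adjusted p of 0.172, and no call of a member changed. Depth is not known, and genes under the filter, such as Apln and Angpt2, were too low to test.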

Other observations

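The 5 genes other than members whose log2(FPKM + 1) followed the mean standardised level of the 9 members tested most closely over the 6 libraries were Acvr2b (Pearson r = 0.992), Ccdc91 (0.990), Entpd1 (0.988), St3gal4 (0.988) and Tmem184c (0.985). All 5 were highest in cKO replicate 2 and lowest in cKO replicates 1 and 3, as Acvr2b shows with 9.92, 12.0 and 9.72 FPKM in cKO replicates 1, 2 and 3 and 10.8 to 11.5 FPKM in ctrl. The mean level of the members had this same pattern, so it was fixed by how the 5 genes were picked. None of the 5 was in the endothelial lists. The libraries share this pattern with the erythroid share of summed FPKM, lowest in cKO replicate 2 among all libraries, and its part was not tested.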
